A study of Mus musculus with 4 samples.

Results

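Described here are 40 genes named by function, around Atf4 and amino acid supply, in bulk RNA of a mouse leukaemia. All of them are present among the 23235 genes of the deposited tables. They fall into 4 roles, namely 10 stress factors and other Atf4 targets, 10 enzymes of amino acid and folate synthesis, 8 amino acid transporters and 12 cytosolic tRNA synthetases. RNA came from acute myeloid leukaemia of the genotype NRASG12V/Mll-AF9, grown in SCID/Beige mice, after injection of leukaemia cells into the tail vein; this strain lacks B and T cells but keeps red cell, platelet and myeloid precursors of its own. Every library carries both oncogenes; the groups differ in whether NRASG12V is expressed. There are 4 libraries, 1 with NRASG12V on and 3 with it off, for 48 h, 72 h and 96 h of doxycycline, which turns the NRASG12V transgene off in this model. The sources used here give neither the promoter that drives the transgene, nor the tissue harvested, the number of mice or the time at which the on sample was taken. No library received doxycycline with NRASG12V still on, so the drug, elapsed time and loss of the oncogene cannot be told apart.

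Atf4 is a transcription factor of the bZIP class that cells make when the initiation factor eIF2alpha is phosphorylated, which slows protein synthesis in general while favouring translation of the Atf4 message. The kinases that phosphorylate eIF2alpha respond to different stresses: Gcn2 (gene Eif2ak4) to lack of amino acids, Perk (Eif2ak3) to unfolded protein in the endoplasmic reticulum, Pkr (Eif2ak2) to double-stranded RNA, and Hri (Eif2ak1) to lack of haem, chiefly in red cell precursors. Atf4 then raises transcription of genes that make, import and load amino acids onto tRNA, and of further stress factors such as Ddit3 (Chop) and Trib3. Because much of this control acts on translation, the Atf4 mRNA level is not a reading of Atf4 protein.

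Atf4 and C/EBP factors bind together at a composite element whose core is TGATGNAA. The element was sought on both strands of RefSeq promoters (build GRCm38.p6, 250 bases before to 50 bases after each start); no other motif was sought. Of the 40 genes, 33 had a promoter in the table, and 13 of the 33 (39.4%) held the word, against 4.51% of the 27025 genes in the table. The 40 were named by function, as Atf4 targets and genes of amino acid supply. A higher share can therefore come from that choice and is not a result of these libraries. The following windows carry the word in genes that changed strongly (Trib3, Chac1, Asns, Slc1a4), in a synthetase with a smaller positive value (Iars), and in genes whose level hardly differed or was low (Slc7a11, Pycr1, Nupr1). The last 4 of these genes were picked as contrasts after their values were seen. Each is 30 bases, read 5′ to 3′ on the strand where the word reads forward, with the word in capitals.
Trib3, chr2:152344028-152344057, plus strand: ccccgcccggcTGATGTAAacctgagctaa
Chac1, chr2:119351038-119351067, minus strand: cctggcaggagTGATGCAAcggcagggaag
Asns, chr6:7693214-7693243, minus strand: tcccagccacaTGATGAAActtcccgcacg
Slc1a4, chr11:20332699-20332728, plus strand: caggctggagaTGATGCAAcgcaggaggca
Iars, chr13:49682126-49682155, minus strand: gcgtctggaggTGATGCAAtactgacagtg
Slc7a11, chr3:50443661-50443690, minus strand: tctcatgtggcTGATGCAAacctggagaat
Pycr1, chr11:120643833-120643862, minus strand: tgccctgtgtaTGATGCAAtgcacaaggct
Nupr1, chr7:126625562-126625591, plus strand: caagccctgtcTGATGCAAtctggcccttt
The Asns word lay 23 bases before the RefSeq start, and the 250 bases before that start are shown because Asns had the largest change among the enzymes.
Asns, chr6:7693210-7693459, minus strand: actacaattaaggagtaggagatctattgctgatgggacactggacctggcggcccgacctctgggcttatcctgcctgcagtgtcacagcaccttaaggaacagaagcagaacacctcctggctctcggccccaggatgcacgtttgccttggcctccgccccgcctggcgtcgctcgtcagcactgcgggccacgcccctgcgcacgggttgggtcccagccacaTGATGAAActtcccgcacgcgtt
The word was present in 5 of the 9 genes with a promoter that rose in the limma test of all 3 off libraries and in 7 of the 22 that did not pass it. Ddit3, Atf5, Mthfd2 and Aldh18a1 rose and lacked it in this window, as did Shmt1, which fell. A match is a description of letters and not of a bound site.

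Levels are FPKM, fragments per kilobase of transcript after scaling by the authors, put on a common scale through the on library that each table repeats. The FPKM of all genes summed to 6.18e+05 on and to 1.03e+06, 7.31e+05 and 2.51e+06 off at 48 h, 72 h and 96 h. Levels are thus not shares of an equal total. Depth is unknown; the steps between low values show that the off libraries held 1.15, 1.04 and 1.19 times as many reads per unit of FPKM as the on library at 48 h, 72 h and 96 h. Changes are log2((off FPKM + 1)/(on FPKM + 1)), which shrinks the change of genes near or below 1 FPKM. With 1 library at each time, a change at a single time has no replicate check. The 3 off libraries were therefore also tested together against the on library with limma, which treats differences between times as spread. It takes the lone on library to vary as they do. Nothing says that the off libraries came from separate mice, so its p-values reflect variation among these libraries alone, which may be technical. With 1 off library left out, each gene's own spread came only from the off libraries that remained. Calls added there depend on how alike those libraries were and are not further support. In bulk RNA, fewer cells of a type and less RNA per cell cannot be told apart.

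Of the 40 genes, 10 rose, 1 fell, 27 did not pass and 2 stayed under 1 FPKM in every library and were not tested (limma, Benjamini-Hochberg adjusted over 11958 genes). Over all genes tested, 11.9% rose and 15.4% fell, beside 26.3% and 2.63% of the 38 genes tested here. Trib3, Stc2, Slc7a11 and Slc1a4 reached 1 FPKM only with NRASG12V off, which favours a rise for them; among the other 34 genes, 8 rose (23.5%) and 1 fell. Without the 48 h library 16 rose and 2 fell, with Slc7a5, Slc3a2, Slc1a5, Eprs, Iars, Mars and Psat1 added to the calls; over all genes, 1906 rose and 2333 fell of 11907. Without the 96 h library 13 rose and 3 fell, with Cebpg, Slc7a5, Iars, Phgdh and Psat1 added; over all genes, 1736 rose and 2485 fell of 11862, so calls grew there too. With the median change of all genes set to 0, 14 of the 38 rose and 1 fell, and the split over all genes turned to 1666 up and 1322 down, against 1425 and 1840 as deposited. At 48 h, 8 of 37 genes passing the filter were at least 2-fold higher and 1 lower, beside 5% and 4.85% of all genes; the all-gene split was 587 higher and 569 lower, or 796 and 402 with the median set to 0. At 72 h the counts were 6 and 1 of 37, beside 6.61% and 5.76%. At 96 h they were 8 and 1 of 38, beside 7.39% and 8.16%. Atf5, Ddit3, Trib3, Asns, Slc1a4 and Cars were past 2-fold at all 3 times, and Shmt1 was the gene past 2-fold downward each time. The median change of the 40 genes was 0.31, 0.25 and 0.57 at 48 h, 72 h and 96 h, beside -0.14, -0.07 and -0.06 for all genes passing the filter.

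**Figure D1:**
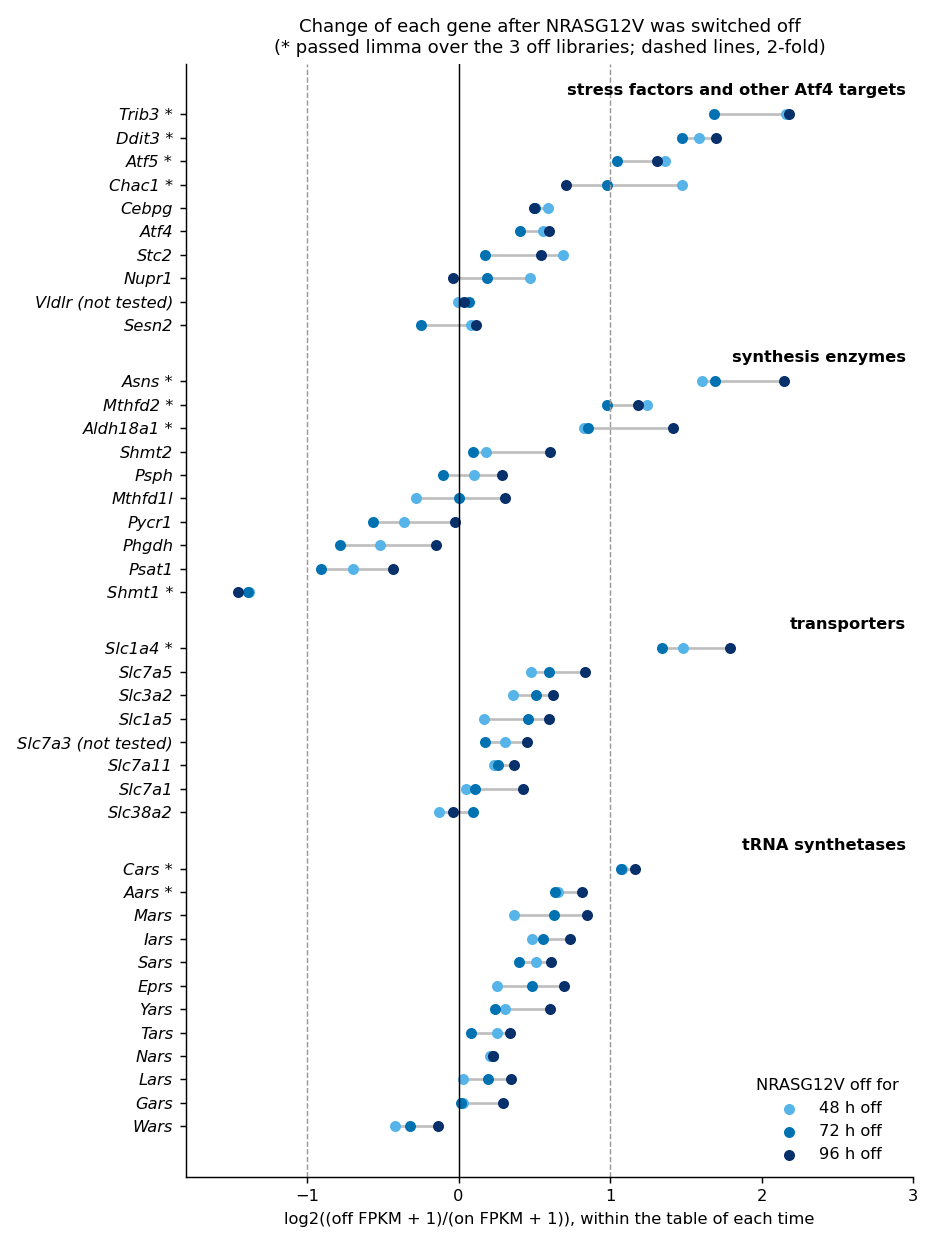
Each row is a gene and each point its log2((off FPKM + 1)/(on FPKM + 1)) at 48 h, 72 h or 96 h, grouped by role and sorted by mean change; an asterisk marks the 11 genes that passed limma over the 3 off libraries. The transporters and synthetases lie mostly to the right of 0, while the synthesis enzymes run from Shmt1 near -1.41 to Asns at 1.81 (mean of the 3 times).

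Among the stress factors, Trib3, Ddit3, Atf5 and Chac1 rose, beside 11.9% of all genes tested. The other 5 stress factors tested did not pass. Atf4 itself stood at 90.2 FPKM with NRASG12V on and at 133, 120 and 137 FPKM after 48 h, 72 h and 96 h off. All 3 off libraries were above the on library, with a mean change of 0.52 ± 0.10 (SD, n = 3 off libraries) that did not pass (limma, Benjamini-Hochberg adjusted p = 0.0891). Trib3 encodes a pseudokinase that binds Akt and restrains Atf4 in a feedback loop. Its level was 0.993 FPKM on and 7.77, 5.44 and 8.08 FPKM off, a mean change of 2.01 ± 0.28 (limma, Benjamini-Hochberg adjusted p = 0.00154). This size depends on the pseudocount, and was 2.70 at 0.1 FPKM and 1.01 at 5 FPKM. The 72 h library was the lowest of the off libraries for Trib3, and still well above the on library. Ddit3, the bZIP factor Chop that can drive cell death under lasting stress, was at 11.7 FPKM on and at 37.0, 34.2 and 40.2 FPKM off (1.59 ± 0.11; limma, Benjamini-Hochberg adjusted p = 0.00161). Atf5, a bZIP factor related to Atf4, was at 11.0 FPKM on and at 29.9, 23.7 and 28.7 FPKM off (1.24 ± 0.17; limma, Benjamini-Hochberg adjusted p = 0.00426).

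Chac1, an enzyme that degrades glutathione, was at 1.36 FPKM on and 5.49, 3.68 and 2.87 FPKM after 48 h, 72 h and 96 h off. It was thus highest at the earliest time, and its mean change of 1.05 ± 0.39 passed (limma, Benjamini-Hochberg adjusted p = 0.0243), though not when every gene with a value above 0 was tested (0.0819; 0.000549 to 0.0819 over 8 alternatives). The mean change of Chac1 was 1.44 with a pseudocount of 0.1 FPKM and 0.49 with 5 FPKM. Cebpg, a C/EBP factor that pairs with Atf4, was at 8.63 FPKM on and 13.5, 12.6 and 12.6 FPKM off. The spread of its change was small, at 0.53 ± 0.05, and it did not pass (limma, Benjamini-Hochberg adjusted p = 0.0571). Stc2, a secreted glycoprotein, was at 0.892 FPKM on and at 2.03, 1.13 and 1.77 FPKM off (limma, Benjamini-Hochberg adjusted p = 0.143). Nupr1, a small nuclear stress protein, was at 9.22 FPKM on and at 13.2, 10.6 and 8.95 FPKM off, so that its groups overlapped. Sesn2, which restrains mTORC1 when leucine is short, was at 8.90 FPKM on and at 9.48, 7.35 and 9.71 FPKM off, with a mean change of -0.02 ± 0.20 that was positive with the median of all genes set to 0 (0.064) and without the 72 h library (0.097). Vldlr, a lipoprotein receptor, was at 0.430 to 0.501 FPKM off and 0.433 FPKM on.

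**Figure D2:**
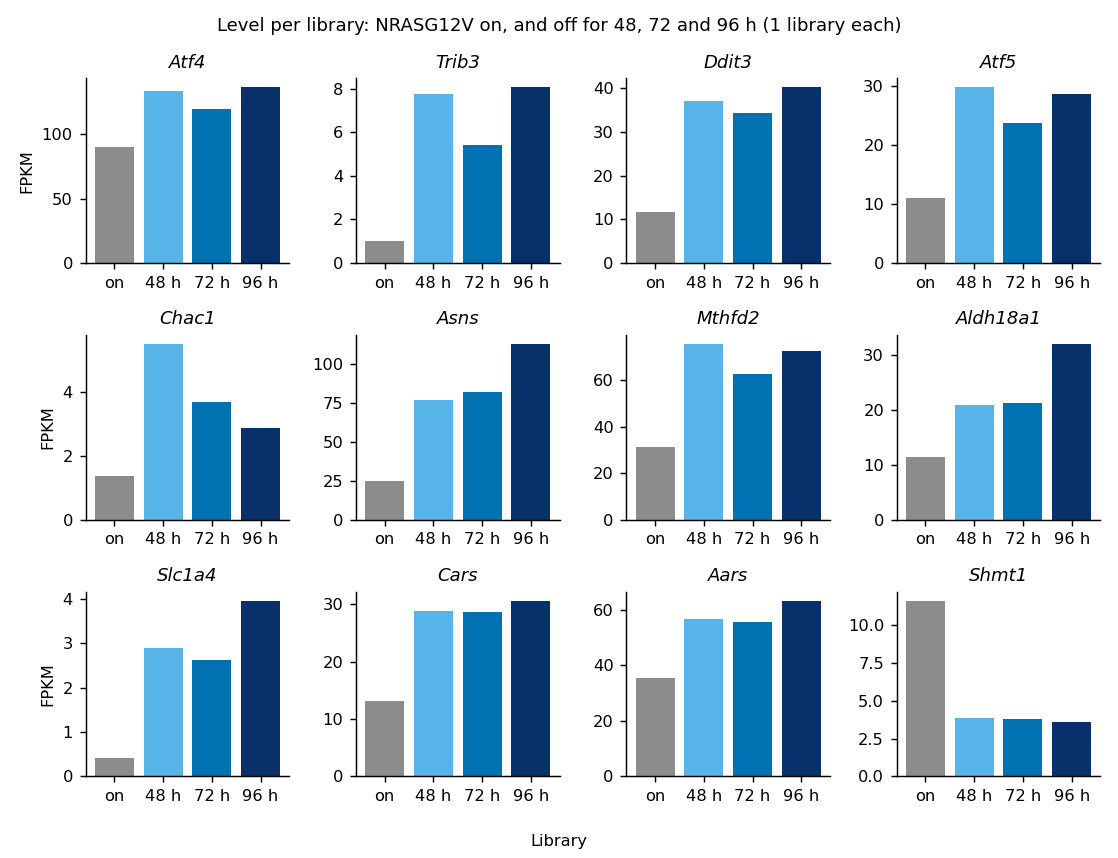
Bars give the FPKM of Atf4 and of the 11 genes that passed limma in each library, from on through 48 h, 72 h and 96 h off (1 library each, so no error bars), on axes that start at 0. In the 10 that rose every off bar stands above the on bar, and Shmt1 shows the reverse, at 3.57 to 3.85 FPKM off and 11.6 FPKM on.

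The synthesis enzymes went in opposite directions, with 3 up, 1 down and 6 not passing, beside 11.9% up and 15.4% down of all genes tested. The median change of the enzymes was -0.09, -0.05 and 0.30 by time. The first pair of these turned positive with the median of all genes set to 0. Asns, which makes asparagine from aspartate and glutamine and is the classic Atf4 target of amino acid lack, was at 24.7 FPKM on and 77.0, 82.1 and 113 FPKM in the 48 h, 72 h and 96 h off libraries. Its mean change was 1.81 ± 0.29 (limma, Benjamini-Hochberg adjusted p = 0.00227), and the 96 h library was the highest. Mthfd2, a folate enzyme of mitochondria, was at 31.3 FPKM on and 75.4, 62.7 and 72.6 FPKM off (1.14 ± 0.14; limma, Benjamini-Hochberg adjusted p = 0.00593). Aldh18a1, the enzyme that starts proline synthesis from glutamate, was at 11.3 FPKM on and at 20.9, 21.3 and 32.0 FPKM off (1.03 ± 0.33; limma, Benjamini-Hochberg adjusted p = 0.0209). It did not pass when every gene with a value above 0 was tested (0.0697; 0.00367 to 0.0697 over 8 alternatives). Pycr1, which completes proline synthesis in mitochondria, stayed low, at 0.782, 0.533 and 1.24 FPKM off and 1.28 FPKM on (-0.32 ± 0.27; limma, Benjamini-Hochberg adjusted p = 0.311).

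The enzymes that make serine did not follow Asns, although they are counted among Atf4 targets. Phgdh, the entry step from glycolysis, was at 44.2 FPKM on and at 30.5, 25.3 and 39.8 FPKM off, with each off library below the on library (-0.48 ± 0.32; limma, Benjamini-Hochberg adjusted p = 0.187). Psat1, the next step, was at 57.7 FPKM on and at 35.2, 30.2 and 42.4 FPKM off (-0.68 ± 0.24; limma, Benjamini-Hochberg adjusted p = 0.0571). Neither passed in the test of all 3 libraries; without the 96 h library both did (limma, Benjamini-Hochberg adjusted p = 0.0216 for Phgdh, which ranged from 0.0216 to 0.559 over 8 alternatives, and 0.00751 for Psat1, from 0.00751 to 0.276), and Psat1 also did without the 48 h library (0.0422). Psph, the last step, was at 10.3, 8.78 and 11.8 FPKM off and 9.48 FPKM on.

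Further enzymes pass serine carbon into the folate pool. Shmt1, the cytosolic serine hydroxymethyltransferase, fell to 3.85, 3.80 and 3.57 FPKM off, against 11.6 FPKM on, the same size at every time (-1.41 ± 0.04; limma, Benjamini-Hochberg adjusted p = 0.00167). With a pseudocount of 5 FPKM its mean change was -0.92. Shmt2, its mitochondrial counterpart, was more abundant, at 67.5, 63.4 and 90.6 FPKM off and 59.4 FPKM on (0.29 ± 0.27; limma, Benjamini-Hochberg adjusted p = 0.392). The ratio of these genes to each other was not tested. Mthfd1l, which releases formate in mitochondria, was at 24.7 FPKM on, and 20.1, 24.7 and 30.8 FPKM in the 48 h, 72 h and 96 h off libraries, on both sides of the on level.

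Of the 7 transporters tested, only Slc1a4 rose and none fell, beside 11.9% up and 15.4% down of all genes tested. Of the 8 transporters, 7 were above the on library in all 3 off libraries. So were 72.5% of the 40 genes and 33.4% of all genes passing the filter. The counts of 8 and 40 take in genes that do not pass the filter, unlike the 33.4%. Among these 7 transporters, Slc1a4 and Slc7a11 reached 1 FPKM only with NRASG12V off, which favours a rise. Slc7a3 stayed under 1 FPKM in every library. Slc1a4 (Asct1), a sodium-dependent carrier of serine, alanine and cysteine, was at 0.419 FPKM on and at 2.89, 2.62 and 3.96 FPKM off. Its change was 1.54 ± 0.23 (limma, Benjamini-Hochberg adjusted p = 0.00221), from a level below the filter in the on library, and was 2.63 with a pseudocount of 0.1 FPKM and 0.59 with 5 FPKM. Slc1a5 (Asct2), the related and far more abundant glutamine carrier, was at 49.5 FPKM on and 55.6, 68.2 and 75.5 FPKM off (0.41 ± 0.22; limma, Benjamini-Hochberg adjusted p = 0.205).

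Slc7a5 and Slc3a2 encode the light and heavy chains of a heterodimer that imports leucine and other large amino acids. Slc7a5 was at 45.1 FPKM on and 63.4, 68.9 and 81.2 FPKM in the off libraries by time. Slc3a2 was at 49.0 FPKM on and 63.2, 70.5 and 76.2 FPKM off, so the chains had similar levels in each library. Their mean changes of 0.64 ± 0.18 and 0.50 ± 0.13 did not pass (limma, Benjamini-Hochberg adjusted p = 0.0565 and 0.0986); without the 48 h library both did (0.0161 for Slc7a5, which ranged from 0.0161 to 0.196 over 8 alternatives, and 0.0342 for Slc3a2, from 0.0342 to 0.364), and Slc7a5 also did without the 96 h library (0.0458). Slc7a11, the cystine importer, was at 0.631 FPKM on and 0.913, 0.959 and 1.11 FPKM off. Slc7a1, a carrier of arginine and lysine, was at 16.5, 17.2 and 21.7 FPKM off and 15.9 FPKM on, and its relative Slc7a3 was at 0.182 to 0.439 FPKM off and 0.0473 FPKM on. Slc38a2, a carrier of small neutral amino acids that amino acid lack is known to induce, was at 29.9, 35.1 and 32.0 FPKM off and 32.7 FPKM on, so its groups overlapped.

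Among the 12 synthetases, which charge tRNA with its amino acid, Cars and Aars rose, none fell and 10 did not pass. Of all genes tested, 11.9% rose and 15.4% fell. Cars, for cysteine, was at 13.1 FPKM on and at 28.7, 28.7 and 30.6 FPKM off, nearly the same in all off libraries (1.10 ± 0.05; limma, Benjamini-Hochberg adjusted p = 0.00431). Aars, for alanine, was at 35.5 FPKM on and at 56.5, 55.7 and 63.3 FPKM off (0.70 ± 0.10; limma, Benjamini-Hochberg adjusted p = 0.0302). Without the 72 h library Aars did not pass (0.131; 0.0128 to 0.131 over 8 alternatives). Mars, for methionine, had 28.7, 34.7 and 40.5 FPKM off and 22.1 FPKM on (0.61 ± 0.24; limma, Benjamini-Hochberg adjusted p = 0.0758), and Iars, for isoleucine, had 30.7, 32.4 and 36.8 FPKM off and 21.7 FPKM on (0.59 ± 0.13; adjusted p = 0.0540). Sars, for serine, was at 48.9, 45.3 and 52.6 FPKM off and 34.1 FPKM on. Eprs, a fused enzyme for glutamate and proline, was at 33.5, 39.5 and 45.9 FPKM off and 28.0 FPKM on.

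The remaining synthetases lay closer to the on library. Yars, Tars, Nars, Lars and Gars had mean changes of 0.38, 0.23, 0.22, 0.19 and 0.11, each above 0 at every time. Wars, for tryptophan, was the exception: it was below the on library at all 3 times, at 16.4, 17.7 and 20.2 FPKM off and 22.3 FPKM on (-0.29 ± 0.14; limma, Benjamini-Hochberg adjusted p = 0.291). Thus 11 of the 12 were above 0 at all 3 times. Of 11 other genes of the cytosolic synthetase system, 2 were above 0 at all 3 times and 5 below. Of 17 synthetases of mitochondria, 5 were above and 7 below. Over all genes passing the filter, 33.4% were above 0 at all 3 times and 45.7% below. No gene of these 28 passed limma in either direction (Benjamini-Hochberg). An unadjusted limma p under 0.05 was found for 2 of the 11 and 2 of the 17, beside 4968 of all 11958 genes tested. By time, the list medians were 0.28, 0.32 and 0.61 for the 12, -0.35, -0.23 and 0.03 for the other cytosolic genes, and -0.21, -0.10 and 0.17 for the mitochondrial ones. The difference between these lists was not tested.

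**Figure D3:**
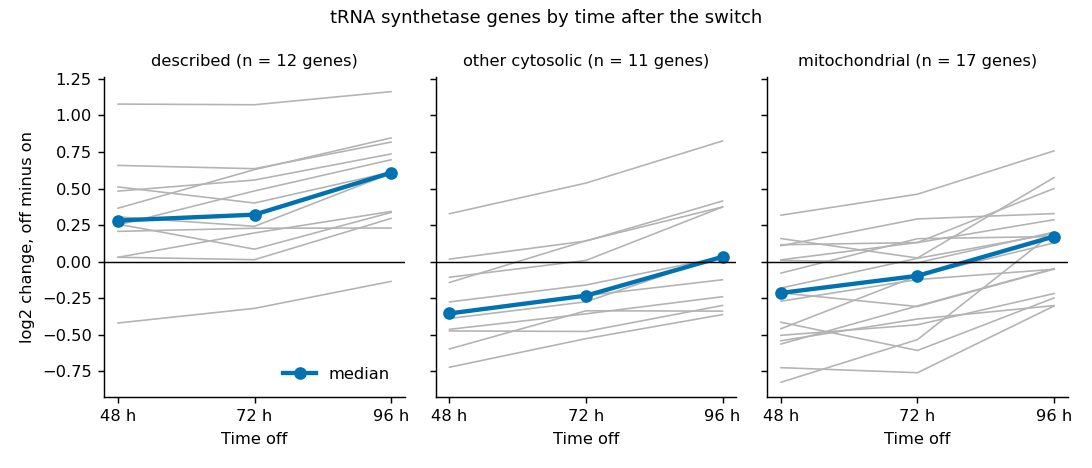
Grey lines are single genes and the blue line the list median of log2 change (off minus on) at 48 h, 72 h and 96 h, for the 12 synthetases described, 11 other cytosolic synthetase genes and partners, and 17 mitochondrial synthetases. The 12 start higher, at a median of 0.28 against -0.35 and -0.21, and all 3 medians are highest at 96 h.

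The order of the times differed by role. All 12 synthetases were higher at 96 h than at 48 h, as were all 8 transporters and 8 of the 10 synthesis enzymes. The same order held in 11 of 11 other cytosolic and 17 of 17 mitochondrial synthetases between 48 h and 96 h, and in 59.5% of all genes passing the filter. The stress factors had no such order, with 5 of 10 higher at 96 h than at 48 h. Between 48 h and 72 h, 9 of 10 stress factors were higher at 48 h, against 38.8% of all genes. So were 7 of 10 synthesis enzymes, 6 of 12 synthetases, 2 of 8 transporters and 24 of the 40 genes. These are differences between single libraries.

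Of the kinases that act on eIF2alpha, Eif2ak1 (Hri) and Eif2ak2 (Pkr) rose and the others did not pass. Eif2ak1 was at 42.8 FPKM on and at 79.6, 106 and 105 FPKM off (1.15 on average; limma, Benjamini-Hochberg adjusted p = 0.00933). Eif2ak2, itself induced by interferon, was at 9.31 FPKM on and at 17.2, 14.8 and 18.9 FPKM off (0.80; limma, Benjamini-Hochberg adjusted p = 0.0210, but 0.0530 when every gene with a value above 0 was tested; 0.0106 to 0.0530 over 8 alternatives). Eif2ak3 (Perk) was at 6.77, 6.77 and 5.87 FPKM off and 8.07 FPKM on, and Eif2ak4 (Gcn2) at 3.95, 4.31 and 4.30 FPKM off and 4.77 FPKM on, each slightly below the on library at every time. Eif2ak1 was the most abundant of the 4 kinase messages in every library.

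Over the wider list of 20 integrated stress response genes, 4 rose, 3 fell and 13 did not pass. Of all genes tested, 11.9% rose and 15.4% fell. The 4 that rose include Eif2ak1 and Eif2ak2. Ppp1r15a (Gadd34), which directs the removal of phosphate from eIF2alpha, rose by 1.64 on average, to 84.0, 121 and 118.5 FPKM off, against 33.5 FPKM on. Gadd45a, a growth arrest gene, rose by 1.65. Ddit4 (-2.92), an inhibitor of mTORC1, and the bZIP factors Cebpb (-1.85) and Jdp2 (-1.07) fell. Jdp2 passed narrowly (limma, Benjamini-Hochberg adjusted p = 0.0430, up to 0.122 over 8 alternatives). For Ppp1r15a, Gadd45a, Ddit4 and Cebpb the adjusted p (limma, Benjamini-Hochberg) was at most 0.00610. The unfolded protein response of the endoplasmic reticulum shares Atf4 and Ddit3 with the genes described here through Perk. Its list had no rise and 5 falls among 17 genes. These were the sensor Atf6 (-0.98), the factor Xbp1 (-0.80), the oxidoreductase Pdia6 (-1.08), and Edem1 (-1.02) and Sel1l (-0.61) of the disposal route for misfolded protein. Their adjusted p (limma, Benjamini-Hochberg) was at most 0.0380; Xbp1 and Sel1l each missed the threshold in 3 of 8 alternatives, at up to 0.107 and 0.178. Atf6, Xbp1 and Sel1l, which fell by less than 2-fold, were named after their values were seen. The list's median changes were -0.41, -0.59 and -0.67 at 48 h, 72 h and 96 h, and 15 of 17 were below 0 at all 3 times, beside 45.7% of all genes passing the filter.

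**Figure D4:**
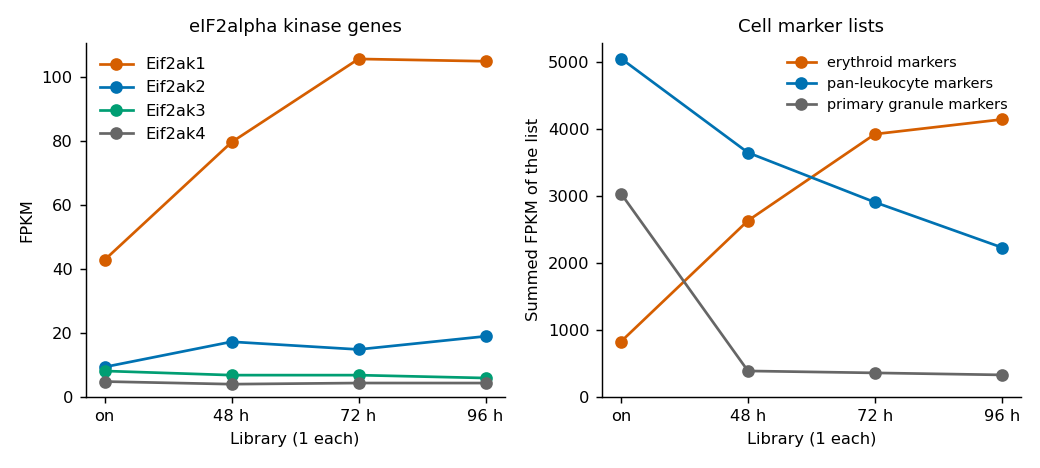
Left, FPKM of the 4 eIF2alpha kinase genes in each library; right, summed FPKM of the erythroid, pan-leukocyte and primary granule marker lists. Eif2ak1 and the erythroid sum are both higher off than on, while the pan-leukocyte and primary granule sums are lower off than on.

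Beside 11.9% up and 15.4% down of all genes tested, 4 rose and 9 fell among 24 other genes of amino acid metabolism that were tested. Those that rose included Mthfd1 (1.19), the cytosolic folate enzyme, at 49.2, 60.2 and 76.9 FPKM off and 26.2 FPKM on, the mitochondrial arginase Arg2 (1.40) and Odc1 (0.97) of polyamine synthesis. Arg2, at 0.699 FPKM on, passed the filter only through the off libraries, which favours a rise. Falls past 2-fold were those of the cytosolic arginase Arg1 (-2.59), the threonine-degrading Gcat (-1.81), Ass1 of arginine synthesis (-1.79), glutamate dehydrogenase Glud1 (-1.27) and the proline-degrading Prodh (-1.04). Of 15 other transporters tested, 5 rose and 3 fell, beside the same shares of all genes. The rises were in Slc43a1 (2.26), Slc38a5 (1.77), the glycine transporter Slc6a9 (1.77), Slc25a38 (1.72), which carries glycine into mitochondria for haem synthesis, and Slc16a10 (1.40), and the one fall past 2-fold was in Slc7a6 (-1.19), beside Slc38a1 (-0.98) and Slc36a4 (-0.90). Odc1, Slc38a1 and Slc36a4 were named after their values were seen. Slc43a1, for one, was at 57.7, 82.9 and 91.5 FPKM off and 15.1 FPKM on. The limma adjusted p (Benjamini-Hochberg) of the named genes past 2-fold was at most 0.0124.

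**Figure D5:**
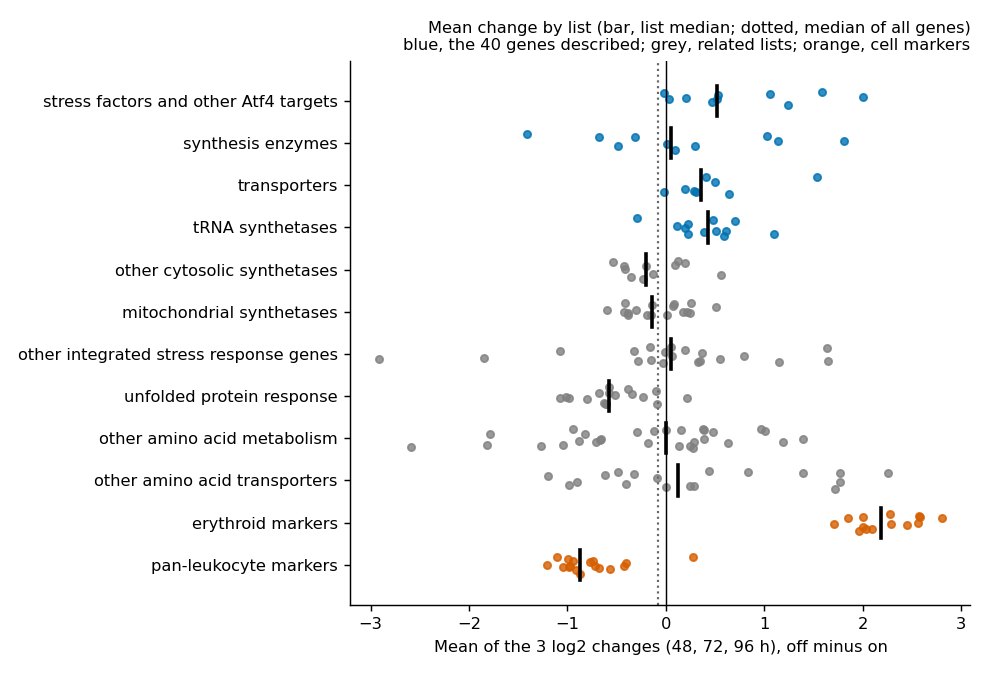
Each point is a gene's mean of the 3 log2 changes (off minus on); black bars are list medians and the dotted line the median of all genes, -0.08. The stress factor, transporter and synthetase medians are 0.52, 0.36 and 0.43, the synthesis enzyme median is 0.05, and the erythroid and pan-leukocyte medians are 2.19 and -0.87.

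Markers of other cell types moved over the same libraries. All 14 erythroid markers found rose (limma, Benjamini-Hochberg), while 11.9% of all genes tested rose and 15.4% fell. The summed level of the erythroid markers was 824 FPKM on and 2630, 3922 and 4141 FPKM off. Of 17 pan-leukocyte markers, 9 fell and none rose, with sums of 5051 FPKM on and 3646, 2905 and 2229 FPKM off. The other 8 did not pass. At all 3 times 16 of the 17 were below 0, beside 45.7% of all genes passing the filter. Ptprc was the exception, at 67.5 FPKM on and 97.3, 91.1 and 62.2 FPKM off at 48 h, 72 h and 96 h. None of the 17 was at 0. The 5 primary granule markers, which belong to early myeloid cells as the labelled leukaemia does, all fell and summed to 3035 FPKM on and 386, 357 and 327 FPKM off. In the hepatocyte list the highest sum was 0.732 FPKM, with Alb and Fgb at 0 in every library. Of 6 lymphoid markers only Cd79b reached 1 FPKM. Cd79b fell, from 13.1 FPKM on to 4.49, 4.27 and 4.01 FPKM off (limma, Benjamini-Hochberg adjusted p = 0.00171). Of 7 megakaryocyte markers 5 rose, with sums of 197 FPKM on and 289, 277 and 342 FPKM off. Of 4 endothelial markers tested, Kdr and Tek rose and Pecam1, the most abundant, fell (limma, Benjamini-Hochberg adjusted p = 0.0159, up to 0.0525 over its alternatives); Tek passed the filter only through the off libraries. The part of these marker shifts in the changes of the 40 genes was not tested.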

How the data were processed

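The labels' protocols give a Qiagen RNA extraction and Illumina libraries. The authors deposited FPKM per gene in 4 tables, made with TopHat2 2.0.4 and Cuffdiff on mm9, per the submitters' processing notes; the annotation, the strand setting and a Cuffdiff version were not found there. The column headed 0 h was read as the on library, and its values differ between tables by 1 factor, through which levels were put on 1 scale. Changes were computed within each table with a pseudocount of 1 FPKM, and differ from changes of the rescaled levels by at most 0.023 for the 40 genes. Genes reaching 1 FPKM in any library were tested with limma 3.58.1 (statmod 1.5.0, R 4.3.3; trend and robust moderation, 2 residual degrees of freedom), with off libraries tied to the on library by these changes and a Benjamini-Hochberg threshold of 0.05. The code was tested on simulated data. The genes and lists were chosen with earlier results of these data known. All 40 genes are reported; of the 6 related lists, the text names genes past limma and 2-fold and the 4 kinases, with exceptions stated. Marker lists are given as counts and sums, and their genes were named after their values were seen. A gene of these lists and a promoter window are not reported here. Of 212 list entries, 211 were found. Alternatives covered the pseudocount, filter, centring, fold threshold and each off library.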

Additional observations from a re-analysis of the deposited data

Results flagged for a closer look

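In total, 5 of the 38 genes tested had changes of opposite sign at different times. Each time had 1 library, and the difference was not tested. The log2 change, off against on, ran from -0.25 at 72 h to 0.11 at 96 h for Sesn2, and from 0.47 at 48 h to -0.04 at 96 h for Nupr1. It ran from -0.10 at 72 h to 0.28 at 96 h for Psph, from -0.28 at 48 h to 0.31 at 96 h for Mthfd1l, and from -0.13 at 48 h to 0.10 at 72 h for Slc38a2. None of the 5 passed limma over the 3 off libraries (Benjamini-Hochberg adjusted p from 0.520 for Nupr1 to 0.984 for Mthfd1l).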

How the results depend on the processing

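The count of genes that rose was 7 to 14 under the planned pseudocounts, filters and centring, and 9 to 16 leaving out 1 off library; the count that fell was 1 and 1 to 3. Of the 11 genes called, 8 passed limma under every alternative that tested them; Chac1, Aldh18a1 and Aars (adjusted p = 0.0551) did not when every gene above 0 was tested, nor Aars without the 72 h library. Means near 0 changed sign: Sesn2 (0.064 with the median of all genes set to 0; -0.083 without the 96 h library to 0.097 without 72 h), Slc38a2 (0.061 and, leaving out 72 h or 48 h, -0.080 to 0.031) and Mthfd1l (-0.14 without 96 h to 0.15 without 48 h). With a pseudocount of 5 FPKM, genes at least 2-fold higher at 48 h and 72 h numbered 5 and 2 and 0 were lower at each time; with 0.1 FPKM, 2 were lower at 72 h. At 1.5-fold, 2 and 3 were lower at 48 h and 72 h, and 12 and 20 higher at 72 h and 96 h. With the pseudocount at 0.1 FPKM, stress factor medians were 0.87 at 48 h, 0.76 at 96 h and 0.68 over the 3 libraries, and transporter medians 0.42, 0.53 and 0.68 by time and 0.54 over the 3. At 5 FPKM the stress factor medians were 0.49 at 48 h and 0.34 at 96 h, the transporter median 0.11 at 48 h, and that of all 40 genes 0.36 at 96 h. Centring gave 0.78 for stress factors and 0.41 for transporters at 48 h, and turned the synthesis enzyme median to 0.053 at 48 h and 0.022 at 72 h. The cause of these shifts was not tested. Over all genes, 1206 fell without the 72 h library; at 5 FPKM the 2-fold counts were 281 higher and 250 lower at 48 h, 385 and 301 at 72 h, and 446 and 470 at 96 h; at 0.1 FPKM they were 969 and 861 at 48 h and 1205 higher at 72 h; and at 1.5-fold 1432 and 2067, 1761 and 2146, and 1865 and 2322 by time. No paired analysis was possible because each group holds 1 library. Without read counts, the precision of low genes such as Slc7a3 is unknown.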
